A study of Mus musculus with 4 samples.

Results

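A set of 10 genes of the unfolded protein response and the integrated stress response was followed across the cell types of mouse hindlimb muscle. They were selected by gene symbol from the feature list of the single-cell matrices, and all 10 were present among the 32285 features listed. Ddit3 was listed under 2 identifiers, of which ENSMUSG00000116429 held 0 UMIs (unique molecular identifiers, each standing for 1 captured transcript), so its values come from ENSMUSG00000025408.

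The single cells came from tibialis anterior and gastrocnemius muscles of 2-month-old male mice. Every animal carried S100GFP-tg, in which EGFP is expressed from an S100B promoter, so that Schwann cells could be sorted by fluorescence. The paper also reports GFP+ clusters other than Schwann cells, in which S100b was low or absent. Controls were S100GFP-tg with wild-type Sod1 (WT), and the comparison group was S100GFP-tg Sod1-/- (Sod1KO), which lack the cytosolic superoxide dismutase SOD1. Muscles of 4 mice per genotype were pooled, digested with enzymes, and sorted into live GFP+ and GFP- cells, each of which gave 1 library, so that the 4 libraries are WT GFP+, Sod1KO GFP+, WT GFP- and Sod1KO GFP-. No group had a second library, so no test across animals was possible, and the GFP+ and GFP- libraries of a genotype came from the same pool of mice. All intervals given are 95% intervals of counting error only. They do not cover differences between pools or between animals.

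Proteins that fold badly in the endoplasmic reticulum (ER) are sensed by PERK, IRE1 and ATF6. PERK shares with other kinases the phosphorylation of eIF2alpha, which slows translation but favours translation of ATF4, a transcription factor for amino acid supply and for the pro-apoptotic factor CHOP; this shared branch is the integrated stress response. IRE1 splices Xbp1 mRNA, and spliced XBP1 and cleaved ATF6 raise chaperones and degradation factors of the ER. Myelinating Schwann cells make large amounts of membrane in the ER. Because ATF4 is controlled mainly at translation and Xbp1 by splicing, 3' tag counts show the abundance of these mRNAs but neither step.

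The genes were ordered in 2 arms. The ATF4-CHOP arm held Atf4, Ddit3 (which encodes CHOP), Trib3 (a pseudokinase that restrains ATF4 and AKT), Chac1 (a glutathione-degrading cyclotransferase) and Asns (asparagine synthetase). The XBP1-ATF6 arm held Hspa5 (the chaperone BiP), Xbp1, Dnajb9 (ERdj4, a BiP co-chaperone), Herpud1 (a membrane scaffold of ER-associated degradation) and Sdf2l1 (a component of the ERdj3 chaperone complex). Each member is present in the RefSeq table of promoters on GRCm38.p6 (the assembly behind mm10, the build named in the submitters' processing notes), which spans 250 bases before to 50 bases after the start of each gene.

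The stretches below are shown because they match elements that transcription factors of these arms are known to bind. A search for 4 letter patterns was run on both strands: ERSE (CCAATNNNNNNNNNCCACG), ERSE-II (ATTGG, any 1 base, then CCACG), UPRE (TGACGTGA or TGACGTGG) and the composite C/EBP-ATF element, CARE (TGATGNAA). Capitals mark the match, the sequences run 5' to 3' along the gene's strand, and no match overlapped another.
Hspa5 ERSE, chr2:34772009-34772059, plus strand: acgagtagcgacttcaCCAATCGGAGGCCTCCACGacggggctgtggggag
Hspa5 UPRE, chr2:34771917-34771956, plus strand: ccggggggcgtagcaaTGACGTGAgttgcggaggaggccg
Herpud1 ERSE-II, chr8:94386361-94386403, plus strand: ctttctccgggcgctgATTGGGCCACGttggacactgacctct
Herpud1 CARE on the opposite strand, chr8:94386301-94386340, plus strand: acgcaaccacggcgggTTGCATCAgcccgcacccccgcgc
Chac1 CARE on the opposite strand, chr2:119351033-119351072, plus strand: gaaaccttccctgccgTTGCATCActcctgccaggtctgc
Asns CARE, chr6:7693210-7693248, minus strand: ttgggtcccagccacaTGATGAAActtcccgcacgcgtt

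ERSE was found in 0.119% of the 32851 promoters of the table, ERSE-II in 0.0365%, UPRE in 1.12% and CARE in 3.97%. Among the 10 members, Hspa5 alone matched ERSE and UPRE, and Herpud1 alone matched ERSE-II. CARE was matched by 4 members, namely Trib3, Chac1, Asns and Herpud1, and the Trib3 match lay 15 to 22 bases after the start. Herpud1, placed here in the XBP1-ATF6 arm, was the member whose window held elements of both kinds. For Atf4, Ddit3, Xbp1, Dnajb9 and Sdf2l1 these letters are not in the window.

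Depth and cell recovery differed between libraries. After filtering, 4557 (WT GFP+), 5925 (Sod1KO GFP+), 1638 (WT GFP-) and 5143 (Sod1KO GFP-) cells remained, and the medians over all barcodes were 10554.5, 12062, 6152.5 and 13825.5 UMIs. Levels are therefore given as CPM, counts per 1000000 UMIs of the class, and ratios as log2 of Sod1KO over WT CPM. Between 1 and 13 cell barcodes were shared by any pair of libraries. Sod1 itself had 6516 UMIs (90.9 CPM) in the WT GFP+ library and 8799 UMIs (98.1 CPM) in the library labelled Sod1KO GFP+ (0.11, 0.06 to 0.16). The GFP- sort gave 124 CPM in WT and 113 CPM in Sod1KO (-0.13, -0.19 to -0.07), so these 3' tags do not check the genotype. Which exons the Sod1-/- allele has lost could not be taken from the labels or methods. Gm42418, a transcript that overlaps a ribosomal RNA repeat, took 3.01% of the UMIs of WT and 5.69% of those of Sod1KO mSC-like cells, and it was also higher in Sod1KO in tSC-like, smooth muscle-like and endothelial-like cells and in the Wif1/Angptl7 cluster introduced next. With this transcript and the mitochondrial genes left out of the total, the ratios of both arms described below stayed under 0 in these 5 groups, between -0.30 and -0.079.

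Cells were clustered without the 10 members and without 127 further genes of both pathways. Clusters were named from lists of marker genes. mSC-like cells (myelinating Schwann cells) lay mainly in cluster 2, which passed for all 12 of their markers, among them Mbp and Prx. tSC-like cells were named after terminal Schwann cells, which cap the neuromuscular junction. They fell mainly into cluster 7, with 14 tSC markers including Ngfr and Gap43, and cluster 11, with 10 including Kcnj10 and Bche. Ngfr and Gap43 did not pass in cluster 11. Position in the muscle was not measured, so the class may hold other nonmyelinating Schwann cells. Cluster 0 was left unnamed, because it passed for all 9 tenocyte markers while Wif1 and Angptl7, listed as endoneurial fibroblast markers, led it together with Fmod. It is called the Wif1/Angptl7 cluster here. The GFP- libraries held too few Schwann cells to compare, with 4 cells of cluster 2 in WT and 3 in Sod1KO.

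Across the muscle, Hspa5 was the most abundant member and Chac1 and Trib3 the least. Over all cells of a library, Hspa5 ranged from 439 CPM in Sod1KO GFP- to 571 CPM in WT GFP-, and Atf4 from 193 CPM in Sod1KO GFP+ to 324 CPM in WT GFP-. Chac1 ranged from 2.05 to 4.14 CPM and Trib3 from 1.99 to 7.14 CPM. Xbp1, Dnajb9 and Herpud1 lay between 72.3 and 126 CPM in all 4 libraries, Ddit3 between 42.9 and 57.6 CPM, and Asns and Sdf2l1 between 9.60 and 14.8 CPM. UMIs are tags of transcript ends, so these levels compare transcript tags and carry no correction for length.

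**Figure D1:**
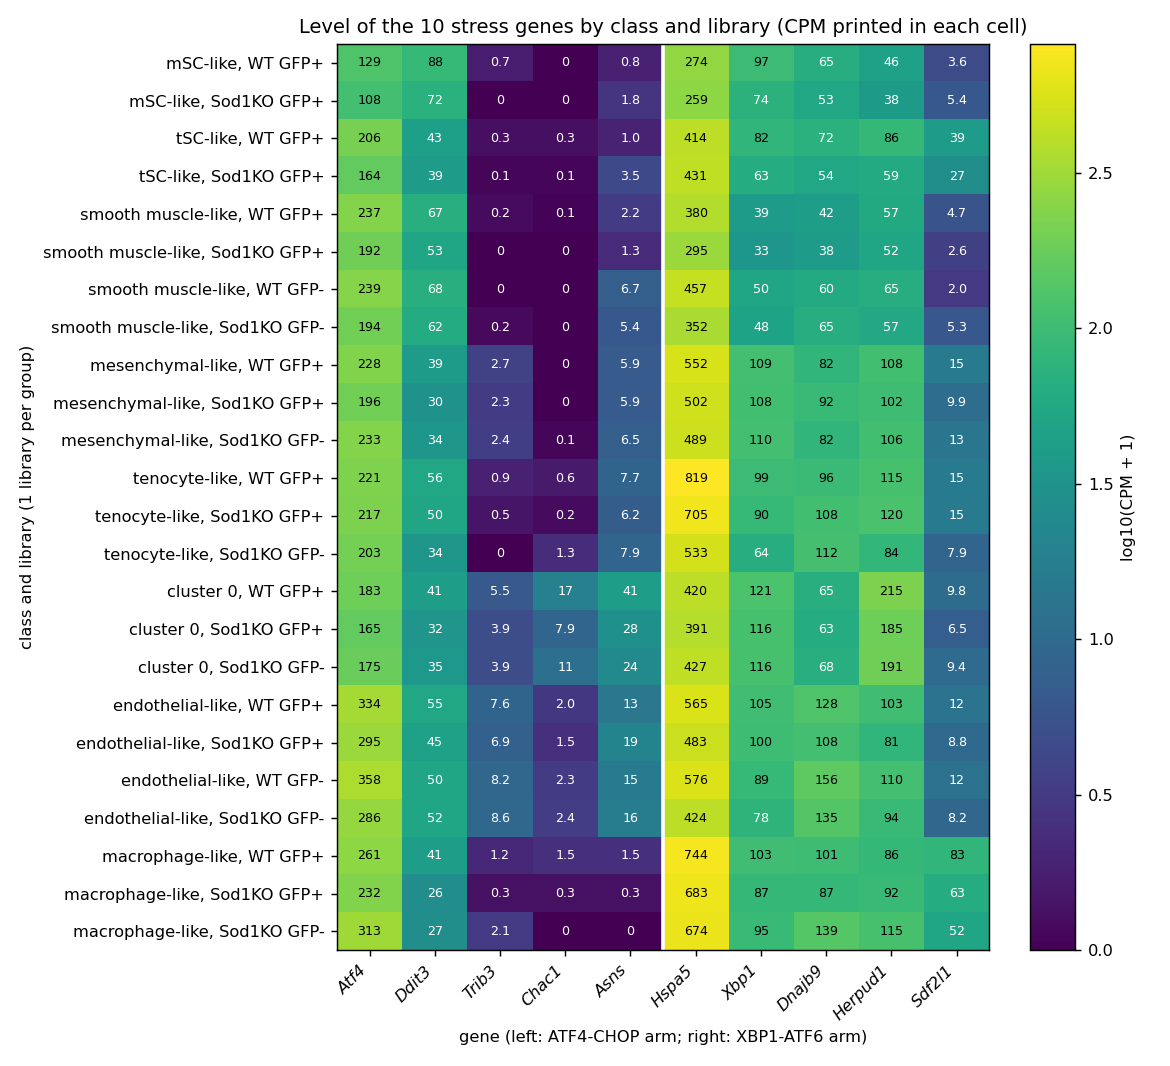
Level of each gene (columns; ATF4-CHOP arm left of the white line, XBP1-ATF6 arm right) in 8 classes and every library with at least 50 cells of the class (rows). Colour is log10(CPM + 1) and the printed value is CPM. Chac1 and Asns stand out in cluster 0, Sdf2l1 in macrophage-like and tSC-like cells, and Ddit3 in mSC-like cells.

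In both GFP+ libraries, mSC-like cells combined the highest Ddit3 with low levels of most other members. Among the 15 classes and clusters with at least 50 cells in the WT GFP+ library, mSC-like cells ranked first for Ddit3, at 88.2 CPM (interval 81.5 to 95.4), and last for Hspa5, at 274 CPM, and Herpud1, at 45.9 CPM. Their Atf4, 129 CPM in WT and 108 CPM in Sod1KO, was the lowest of any named class. The Ddit3 interval overlapped that of the next in order, the unnamed cluster 6 (80.2 CPM), which passed for endothelial markers but whose leading genes included markers of another class. Trib3 had 5 UMIs in 1078 WT cells and 0 UMIs in 659 Sod1KO cells, and Chac1 had 0 UMIs in either. Asns was at 0.841 CPM (6 UMIs) in WT and 1.81 CPM (8 UMIs) in Sod1KO mSC-like cells. The class with the highest Ddit3 level had few UMIs of these 3 genes downstream of ATF4, but this was not particular to it. In WT GFP+, tSC-like cells had 2 Trib3, 2 Chac1 and 6 Asns UMIs at 43.2 CPM of Ddit3. Smooth muscle-like cells had 3, 1 and 28 UMIs of them at 67.1 CPM of Ddit3.

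In tSC-like cells, Sdf2l1 was higher than in mSC-like cells. It stood at 39.0 CPM in WT and 26.5 CPM in Sod1KO tSC-like cells, against 3.64 and 5.43 CPM in mSC-like cells of the same libraries. The interval of WT tSC-like cells, 34.2 to 44.2 CPM, lay clear of the one for WT mSC-like cells, 2.38 to 5.34 CPM. Only macrophage-like cells exceeded tSC-like cells in the WT GFP+ library, at 82.6 CPM. There, 11 of 132 cells held 50% of the 215 Sdf2l1 UMIs and 1 cell held 23 of them. In WT tSC-like cells the same share was spread over 42 of 385 cells, and no cell held more than 6 UMIs.

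Chac1 was nearly restricted to the Wif1/Angptl7 cluster in the GFP+ libraries. This cluster gave 259 of the 297 Chac1 UMIs of the WT GFP+ library (87.2%) and 186 of the 202 of Sod1KO GFP+ (92.1%), while it made up 10.4% and 16.8% of the cells and 20.7% and 26.2% of all UMIs. Its Chac1 level was 17.4 CPM in WT GFP+, 7.91 CPM in Sod1KO GFP+ and 10.7 CPM in Sod1KO GFP-, and no named class exceeded 3.14 CPM in any library. The unnamed clusters 15 (14.6 CPM in WT GFP+) and 24 (7.83 CPM in Sod1KO GFP-) reached their Chac1 levels with 4 UMIs each. The share of its cells with a Chac1 UMI was 22.8% in WT GFP+ (exact binomial interval 19.1% to 26.8%) and 12.8% in Sod1KO GFP+ (10.8% to 15%), at median depths in these cells of 29906.5 and 22772 UMIs. With every cell thinned to 2000 UMIs the Chac1 shares became 2.74% (1.47% to 4.64%) and 1.31% (0.70% to 2.22%), intervals that overlapped. WT mSC-like cells, thinned in the same way, had a Chac1 UMI in 0 of 1072 cells, with an upper end of 0.344%. Unthinned, at a median of 6238 UMIs, it was 0 of 1078 cells, which allows up to 0.278% of cells with a UMI at that depth.

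Asns followed the same cluster, at 41.2 CPM in WT GFP+, 27.8 CPM in Sod1KO GFP+ and 24.1 CPM in Sod1KO GFP-. It provided 71.2% of all Asns UMIs in WT GFP+ and 63.8% in Sod1KO GFP+. Herpud1 was also highest there, at 215, 185 and 191 CPM, and its WT GFP+ interval did not overlap that of the next cluster in order (cluster 13, 167 CPM). Endothelial-like cells came next among the named classes for Asns, at 13.5 to 19.4 CPM over the 4 libraries, and held 46.9% of the Trib3 UMIs of WT GFP- and 43.8% of those of Sod1KO GFP-. Trib3 was at 6.89 to 8.58 CPM in endothelial-like cells and reached 22.5 CPM in the 106 lymphatic endothelial-like cells of Sod1KO GFP-, from 43 UMIs.

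Within the Wif1/Angptl7 cluster, Trib3 and Asns were higher in the cells that had a Chac1 UMI. In WT GFP+, 15 of 474 cells held 50% of the Chac1 UMIs, and in Sod1KO GFP+ 35 of 995 cells did. The 108 WT GFP+ cells with a Chac1 UMI had 75.0 CPM of Asns against 29.4 CPM in the 366 cells without, a log2 ratio of 1.35 (1.12 to 1.58). For Trib3 the ratio was 1.64 (0.97 to 2.30), from 10.98 against 3.53 CPM. Sod1KO GFP+ gave 0.87 (0.60 to 1.13) for Asns and 2.04 (1.40 to 2.67) for Trib3, and Sod1KO GFP- gave 1.06 (0.63 to 1.48) and 2.90 (1.76 to 4.14). The direction was the same in the 3 libraries with at least 50 cells of the cluster.

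The other members differed less between these cells. Atf4 was higher in Chac1-positive cells by 0.21 (0.08 to 0.33) in WT GFP+, 0.17 (0.04 to 0.29) in Sod1KO GFP+ and 0.34 (0.17 to 0.51) in Sod1KO GFP-. Ddit3 differed by 0.39 (0.14 to 0.64), 0.10 (-0.20 to 0.39) and 0.57 (0.20 to 0.94) in the same order. Herpud1 was higher by 0.40 (0.29 to 0.51), 0.13 (0.01 to 0.25) and 0.29 (0.12 to 0.45). For Hspa5 the value was -0.43 (-0.52 to -0.34) in WT GFP+, 0.04 (-0.05 to 0.12) in Sod1KO GFP+ and 0.13 (0.01 to 0.24) in Sod1KO GFP-, and the intervals for Xbp1 and Dnajb9 spanned 0 in all 3. Sdf2l1, with few UMIs, was at -0.48 (-1.12 to 0.11), -0.10 (-0.84 to 0.57) and 0.13 (-0.70 to 0.90). Cells with a Chac1 UMI were deeper, with medians of 35033.5 against 28970 UMIs in WT GFP+, and the part of depth in these ratios was not tested. In endothelial-like cells of Sod1KO GFP-, the 180 cells with a Trib3 UMI were at -0.03 (-0.48 to 0.40) for Asns, an interval that includes 0.

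**Figure D2:**
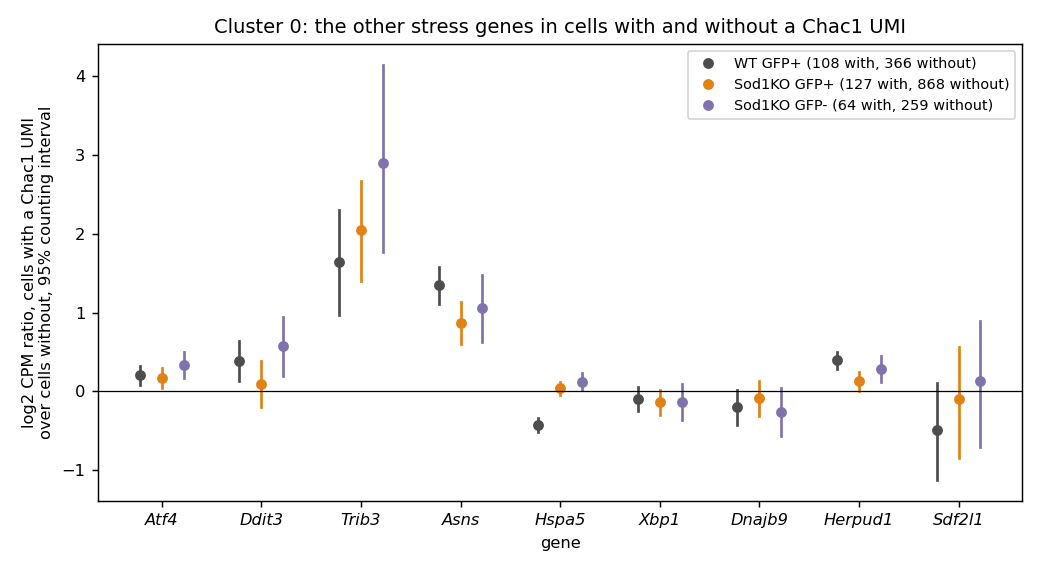
The Wif1/Angptl7 cluster (cluster 0), split by whether a cell had a Chac1 UMI. The vertical axis is the log2 ratio of CPM in cells with over cells without, the points are 3 libraries and the bars 95% counting intervals. Trib3 and Asns lie above 0 in all 3 libraries, and Xbp1 and Dnajb9 span 0.

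Over 25 points, each a named class in 1 library, the members did not move as 2 blocks. Hspa5 ranked with Herpud1 (Spearman correlation 0.75) and Dnajb9 (0.71), and Atf4 with Trib3 (0.72) and Dnajb9 (0.67). Ddit3 ran against every member of the XBP1-ATF6 arm, from -0.35 with Dnajb9 to -0.51 with Herpud1, and its correlation with Atf4 was -0.19. The points share libraries and mice, so these values describe the order of levels and carry no test. The 5 other genes most like the summed ATF4-CHOP arm were Coro6 (0.85), Gm13205 (0.84), Pfkfb3 (0.84), Myadm (0.84) and Gm13547 (0.83). For the XBP1-ATF6 arm they were Rps28 (0.86), Ctsz (0.85), Nans (0.85), Adcy7 (0.82) and Atp6v1a (0.82). With Pearson correlation of log2(CPM + 1) in place of Spearman, 3 of the first 5 names and 1 of the second 5 were among the 5 most like.

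The question of the genotype comparison is whether muscle cells, Schwann cells above all, show higher levels of these genes in mice without SOD1. In most classes the level in the library labelled Sod1KO was slightly lower. Of the members with at least 20 UMIs in both libraries together, the value was below 0 for 6 of 7 in mSC-like, 6 of 8 in tSC-like, 8 of 8 in smooth muscle-like, 7 of 9 in mesenchymal-like, 6 of 8 in tenocyte-like, 6 of 7 in macrophage-like and 8 of 9 in endothelial-like GFP+ cells, and 10 of 10 in the Wif1/Angptl7 cluster. The other unnamed GFP+ clusters gave 6 of 8 (cluster 8), 7 of 8 (cluster 13), 5 of 6 (cluster 15) and 5 of 7 (cluster 23), while cluster 10 gave 2 of 5, with a median of 0.17. Over all genes, the share below 0 was 48.9% in cluster 8, 50.6% in 13, 63.7% in 15, 59.0% in 23 and 54.6% in 10. Member medians in clusters 8, 13, 15 and 23 were -0.14, -0.28, -0.28 and -0.11, beside 0.01, -0.01, -0.25 and -0.09 over all genes. The share of all genes below 0 in the named classes and the Wif1/Angptl7 cluster ran from 41.7% in mesenchymal-like to 58.4% in macrophage-like cells. In these groups, medians over the members lay between -0.35 (tSC-like) and -0.11 (tenocyte-like), beside -0.07 to 0.06 over all genes. Chac1 missed 20 UMIs in all these classes but the Wif1/Angptl7 cluster. Trib3 missed them in mSC-like, tSC-like, smooth muscle-like, tenocyte-like and macrophage-like cells, and Asns in mSC-like and macrophage-like cells. In the GFP- sort, values were below 0 for 6 of 10 in endothelial-like and 6 of 8 in smooth muscle-like cells. Clusters 6, 10 and 15 there gave 10 of 10, 6 of 7 and 6 of 6. Over all genes the shares were 53.3%, 56.7%, 50.7%, 76.8% and 63.4%, in this order. Medians in GFP- clusters 10 and 15 were -0.57 and -0.66, beside -0.44 over all genes in both. In each, 2 members were called 2-fold lower, against 10.9% and 26.4% of all genes.

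In mSC-like cells, Atf4 had 921 UMIs (129 CPM) in WT and 478 UMIs (108 CPM) in Sod1KO, a log2 ratio of -0.26 (-0.42 to -0.09). Ddit3 had 630 UMIs (88.2 CPM) and 319 UMIs (72.1 CPM), a ratio of -0.29 (-0.49 to -0.09). The ratio of Xbp1 was -0.40 (-0.60 to -0.21), from 97.5 and 73.7 CPM, and that of Dnajb9 was -0.29 (-0.53 to -0.06). These were the 4 of 7 measured members whose interval lay wholly below 0, a criterion met by 13.3% of all 12088 measured genes and by 18.4% of those with at least 200 UMIs, since more UMIs give narrower intervals. For Atf4 the value became -0.05 (-0.14 to 0.04) when the class of each cell was taken from its own markers instead of its cluster. Hspa5 differed by -0.09 (-0.19 to 0.02), Herpud1 by -0.27 (-0.54 to 0.01) and Sdf2l1 by 0.58 (-0.29 to 1.43), intervals that include 0. No member reached a 2-fold difference with an interval leaving out 0, which 1.47% of genes did in the higher and 1.56% in the lower direction. Summed over the arm, ATF4-CHOP stood at 219 CPM in WT and 182 CPM in Sod1KO, a ratio of -0.27 (-0.39 to -0.14), and XBP1-ATF6 at 487 and 429 CPM, a ratio of -0.18 (-0.26 to -0.10). Arm values are sums of UMIs, here and below, so the members with most UMIs weigh most. In mSC-like cells these were Atf4 and Ddit3 in the first arm and Hspa5 in the second. Genes known to be induced by tissue digestion, 19 immediate early and heat shock genes such as Fos and Hspa1a, summed to 19768 CPM in WT and 16990 CPM in Sod1KO mSC-like cells. They did not move together, with 6 intervals above and 7 below 0, against 11.3% and 13.3% of all genes. Fos was at 6889 CPM in WT and 5392 CPM in Sod1KO, and Hspa1a at 28.0 and 38.7 CPM. The part of these genes in the ratios was not tested.

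In tSC-like cells, 5 of 8 measured members had an interval below 0, against 24.7% of all genes and 27.8% of those with at least 200 UMIs, and Asns had one above 0, against 19.5%. Herpud1 had 528 UMIs (85.8 CPM) in WT and 630 UMIs (58.8 CPM) in Sod1KO, a ratio of -0.54 (-0.71 to -0.37). Sdf2l1 differed by -0.56 (-0.81 to -0.30), Dnajb9 by -0.41 (-0.59 to -0.23), Xbp1 by -0.37 (-0.54 to -0.20) and Atf4 by -0.33 (-0.44 to -0.23). The chaperone Hspa5 was at 414 CPM (2551 UMIs) in WT and 431 CPM (4616 UMIs) in Sod1KO, 0.06 (-0.01 to 0.13), an interval that includes 0. Asns was the only member with a 2-fold call, from 6 UMIs (0.975 CPM) in WT to 37 UMIs (3.45 CPM) in Sod1KO, a ratio of 1.83 (0.57 to 3.36). A 2-fold higher call was made for 4.79% of genes and a 2-fold lower call for 6.56%. The digestion genes summed to 11514 CPM in WT and 10306 CPM in Sod1KO, but 7 of the 19 had an interval above 0 and 11 below 0. Of these, 2 were called 2-fold higher and 1 lower. Hspa1a was at 58.5 CPM in WT and 138 CPM in Sod1KO, and Egr1 at 1561 and 943 CPM.

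The tSC-like class was not composed alike in the 2 libraries. Cluster 7 held 60 WT and 580 Sod1KO cells, 90.2% of its cells coming from Sod1KO GFP+, whereas cluster 11 held 312 WT and 216 Sod1KO cells and cluster 30 held 13 and 88. Taken apart, Hspa5 was lower in Sod1KO in cluster 7, at 500 against 419 CPM (-0.25, -0.44 to -0.06), and higher in cluster 11, at 410 against 500 CPM (0.29, 0.20 to 0.38). Sdf2l1 was at -0.74 (-1.47 to 0.08) in cluster 7 and turned to 0.083 (-0.24 to 0.40) in cluster 11, and Xbp1 was at -0.47 (-0.92 to 0.03) and -0.21 (-0.45 to 0.02). In cluster 11, members with an interval below 0 numbered 2 in place of 5. The XBP1-ATF6 arm was at -0.40 (-0.55 to -0.25) in cluster 7 and at 0.12 (0.05 to 0.20) in cluster 11. Hspa5 gave 1598 of the 2395 Sod1KO UMIs of this arm in cluster 11, where Herpud1 was at -0.30 (-0.53 to -0.07). For the ATF4-CHOP arm the values were -0.23 (-0.50 to 0.04) in cluster 7 and -0.38 (-0.52 to -0.24) in cluster 11. Dnajb9 was at 97.5 and 49.2 CPM in cluster 7 (-0.99, -1.43 to -0.52), and at 70.4 and 66.7 CPM in cluster 11 (-0.08, -0.32 to 0.17). Of the 37 Asns UMIs of Sod1KO, 31 were in cluster 7, where WT had 2 UMIs and the levels were 4.15 and 4.39 CPM (0.08, -1.89 to 3.19). This interval is wide enough to hold a 2-fold difference in either direction.

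**Figure D3:**
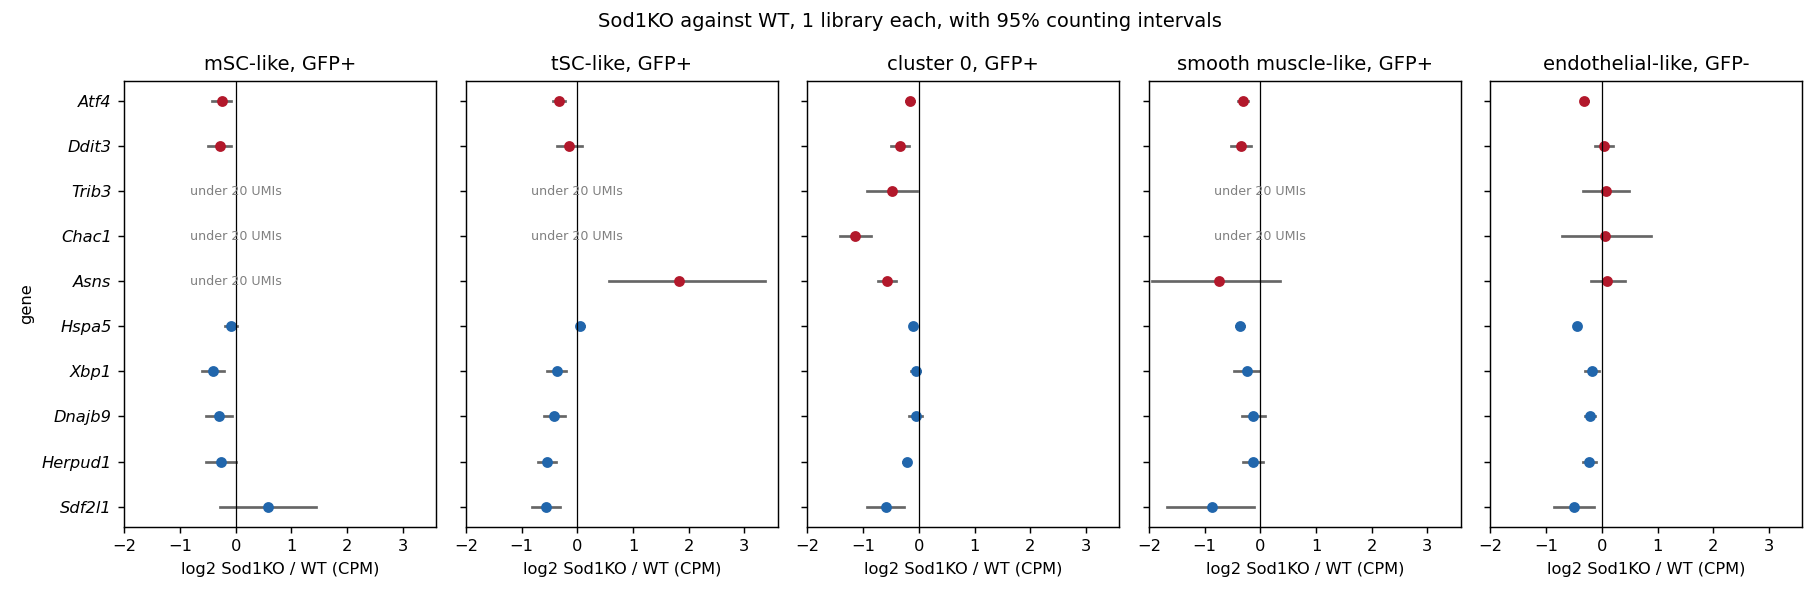
Log2 ratio of Sod1KO over WT CPM (horizontal axis) for each gene (vertical axis) in 5 groups, 1 library per genotype. Bars are 95% counting intervals, red points the ATF4-CHOP arm and blue points the XBP1-ATF6 arm. Most points lie slightly below 0, Chac1 in cluster 0 is at -1.14 and Asns in tSC-like cells at 1.83.

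**Figure D4:**
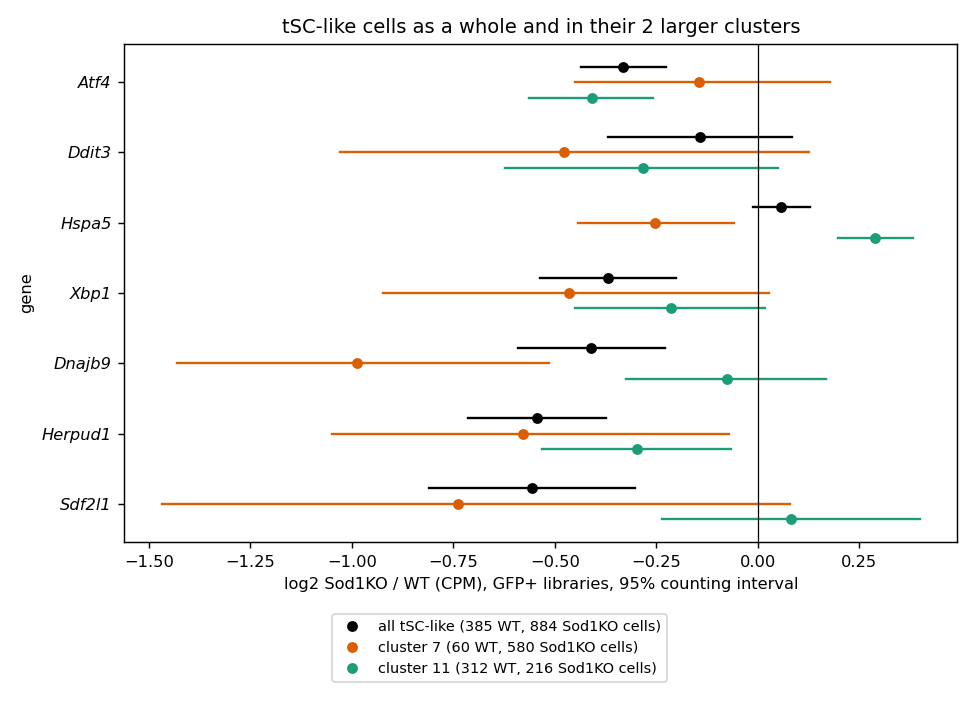
Log2 ratio of Sod1KO over WT CPM for 7 genes in all tSC-like cells of the GFP+ libraries (black), in cluster 7 (orange) and in cluster 11 (green), with 95% counting intervals. Hspa5 is at -0.25 in cluster 7 and 0.29 in cluster 11.

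In the Wif1/Angptl7 cluster, Chac1 was the member called 2-fold lower. It had 259 UMIs (17.4 CPM) in WT GFP+ and 186 UMIs (7.91 CPM) in Sod1KO GFP+, a ratio of -1.14 (-1.42 to -0.86), and 0.864% of all genes were called 2-fold lower there. Asns followed at -0.57 (-0.73 to -0.41) and Trib3 at -0.48 (-0.93 to -0.03). Ddit3 was at -0.34 (-0.50 to -0.18), Atf4 at -0.15 (-0.22 to -0.08), Herpud1 at -0.22 (-0.28 to -0.15), Sdf2l1 at -0.60 (-0.93 to -0.26) and Hspa5 at -0.10 (-0.15 to -0.06). In all, 8 of 10 members had an interval below 0, against 14.8% of all genes and 19.8% of those with at least 200 UMIs. Xbp1 (-0.06, -0.15 to 0.03) and Dnajb9 (-0.05, -0.17 to 0.06) did not. The arms were at -0.28 (-0.34 to -0.23) for ATF4-CHOP and -0.13 (-0.16 to -0.09) for XBP1-ATF6, while the digestion genes stood at 16149 CPM in WT and 12438 CPM in Sod1KO. WT GFP- held 9 cells of this cluster, so no comparison was made in the GFP- sort.

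Vascular cells differed by member. In smooth muscle-like GFP+ cells, 5 of 8 measured members had an interval below 0, against 13.1% of all genes and 18.7% of those with at least 200 UMIs. Hspa5 was at 380 CPM in WT and 295 CPM in Sod1KO (-0.36, -0.44 to -0.29), Ddit3 at 67.1 and 52.7 CPM (-0.35, -0.52 to -0.18) and Atf4 at 237 and 192 CPM (-0.30, -0.40 to -0.21). Their arms were at -0.32 (-0.40 to -0.24) and -0.31 (-0.37 to -0.25). The digestion genes were at 19357 CPM in WT and 19760 CPM in Sod1KO, a difference in the other direction. With a stricter filter on cells, 4 members in place of 8 had a value below 0 and 2 in place of 5 an interval below 0.

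In endothelial-like GFP- cells, all 5 genes of the XBP1-ATF6 arm and Atf4 had intervals below 0, which was 6 of 10 members against 25.6% of all genes and 30.4% of those with at least 200 UMIs. Hspa5 was at 576 CPM (4736 UMIs) in WT and 424 CPM (10075 UMIs) in Sod1KO, a ratio of -0.44 (-0.49 to -0.39), and Atf4 at 358 and 286 CPM, -0.32 (-0.38 to -0.26). Xbp1 was at -0.18 (-0.31 to -0.06), and at -0.05 (-0.18 to 0.09) without the clusters that came by over 80% from 1 library. The class was not composed alike in the 2 libraries, since cluster 25 held 147 of its 641 WT cells and 1 of its 1606 Sod1KO cells. Ddit3 (0.04, -0.12 to 0.20), Trib3 (0.07, -0.33 to 0.49), Chac1 (0.05, -0.72 to 0.88) and Asns (0.10, -0.20 to 0.41) had values just above 0. The arm ratios were -0.25 (-0.30 to -0.19) for ATF4-CHOP and -0.35 (-0.39 to -0.31) for XBP1-ATF6. Atf4 gave 6807 of the 8670 Sod1KO UMIs of the first arm, so its ratio is close to that of Atf4 alone. Hspa5 gave 10075 of the 17575 of the second. The digestion genes were at 19620 CPM in WT and 17361 CPM in Sod1KO, with the interval of 15 of the 19 below 0, and their part was not tested. In the GFP+ libraries the same class gave -0.23 (-0.31 to -0.14) for Hspa5 and -0.18 (-0.29 to -0.07) for Atf4, and Asns was at 0.52 (0.04 to 1.01), from 13.5 to 19.4 CPM. These cells came from the same 2 pools of mice as the GFP- cells.

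The wider pathway was described with 127 further genes of 10 roles. In mSC-like cells 116 of them were measured, and 1 was called 2-fold higher and 1 lower, which is no larger a share than the 1.47% and 1.56% over all genes. Slc1a4, a neutral amino acid transporter, had 22 UMIs in WT and 32 UMIs in Sod1KO (1.23, 0.40 to 2.08). Ddit4, an inhibitor of mTORC1 signalling induced by ATF4, was at 39.8 CPM and 19.7 CPM (-1.02, -1.38 to -0.66). The lower Ddit4 call was not particular to mSC-like cells. It was also made in the Wif1/Angptl7 cluster (-1.48), GFP+ clusters 10 (-1.59) and 23 (-1.095), endothelial-like GFP- cells (-1.12) and GFP- cluster 6 (-1.05). The interval lay below 0 for 27 of the 116 genes, against 13.3% of all genes and 18.4% of those with at least 200 UMIs. It lay above 0 for 10, against 11.3% of all genes. The median was -0.07, beside -0.03 over all genes.

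In tSC-like cells 121 genes were measured, of which 3 were called higher and 2 lower, smaller shares than the 4.79% and 6.56% over all genes, and the median was 0.08, beside -0.04 over all genes. The interval was above 0 for 40 genes, against 19.5% of all genes, and below 0 for 27, a share no larger than the 24.7% of all genes. More UMIs give narrower intervals, and the share above 0 among genes with at least 200 UMIs was not taken. Stc2, which encodes the secreted glycoprotein stanniocalcin-2, had 1 UMI in WT and 210 UMIs in Sod1KO tSC-like cells (6.92, 4.42 to 12.23), and 195 of these were in cluster 7, where 32 of 580 cells had a UMI, 5 cells held 50% of them and 1 cell held 39. The 60 WT cluster 7 cells had 0 Stc2 UMIs, so a fold could only be set against a floor. With the floor at 6.22 CPM, which 3 UMIs over this group would give, the level of 27.6 CPM was 4.44-fold higher (2.15 on the log2 scale). This is not a minimum, since the lower end of the counting interval was 1.84. That interval treats UMIs as independent, although few cells held most of them. In cluster 11, Stc2 had 1 UMI in WT and 0 UMIs in Sod1KO. The rise was not confined to tSC-like cells. The unnamed GFP+ cluster 8 passed for all 12 mSC markers but was led by markers of another class. There, Stc2 had 0 UMIs in WT and 119 UMIs in Sod1KO (4.97 against the floor, lower end 4.64). Aldh1l2, a mitochondrial folate enzyme, had 3 and 54 UMIs (3.37, 1.75 to 5.69) of which 1 and 39 were in cluster 7 (1.41, -1.15 to 6.75) and 2 and 11, under the minimum of 20, in cluster 11. Pycr1, an enzyme of proline synthesis, had 1 and 20 UMIs (3.52, 0.88 to 8.90), and under 20 UMIs in either cluster.

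On the lower side, Slc7a11, the cystine-glutamate exchanger that supplies cysteine for glutathione, had 31 UMIs in WT and 11 UMIs in Sod1KO tSC-like cells (-2.29, -3.43 to -1.26). All 31 WT UMIs were in cluster 11, where Sod1KO had 1 UMI. In GFP+ cluster 8, Slc7a11 went the other way, from 3 UMIs in WT to 57 UMIs in Sod1KO (3.90, 2.28 to 6.22). It was also called higher in endothelial-like GFP+ cells (2.49, 1.22 to 4.03) and lower in endothelial-like GFP- cells (-2.70, -4.11 to -1.43). The latter class had 10 pathway calls, and 2 without clusters that came by over 80% from 1 library. Slc7a11 was not taken apart by cluster there. In tSC-like cells, Creb3l1, an ER-bound transcription factor, was at 4.55 and 2.24 CPM (-1.02, -1.87 to -0.18), and within cluster 11 at -0.82 (-2.09 to 0.30), an interval that includes 0. The following genes, below the 2-fold mark, were chosen as examples after their values were seen, and the counts by role stand against 19.5% of all genes with an interval above 0 and 24.7% below. Genes of aminoacyl-tRNA synthesis had intervals above 0 for 4 and below 0 for 0 of 12 genes, with Cars at 0.52 (0.16 to 0.89) and Iars at 0.49 (0.18 to 0.81). Genes of the translocon and secretory path had 8 above and 3 below 0 among 17, with Sec61a1 at 0.47 (0.27 to 0.68) and Sec63 at -0.25 (-0.35 to -0.16). Amino acid and one-carbon synthesis was split, with 6 above and 4 below 0 among 10, for example Phgdh at 0.62 (0.41 to 0.84) and Gpt2 at -0.71 (-0.88 to -0.54). ER chaperones were split as well, with Manf at 0.29 (0.17 to 0.42) and Dnajc3, the inhibitor of PERK known as p58IPK, at -0.52 (-0.62 to -0.42). Among regulators, Atf3, which is also induced by tissue digestion, was at 0.65 (0.59 to 0.71), from 449 and 705 CPM. Apart from the 5 genes called 2-fold, these tSC-like pathway values were not taken apart by cluster.

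**Figure D5:**
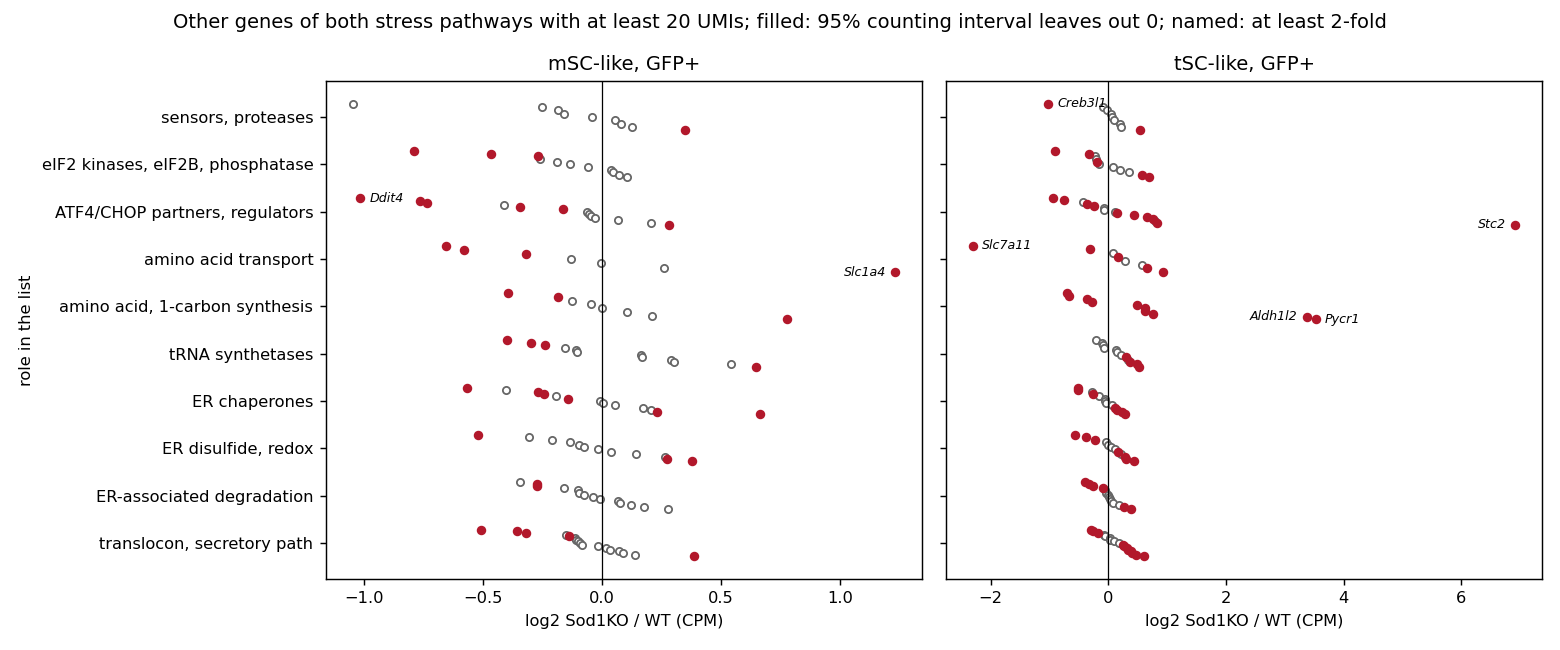
Log2 ratio of Sod1KO over WT CPM (horizontal axis) for the genes of 10 roles (vertical axis) with at least 20 UMIs in mSC-like and tSC-like GFP+ cells. Filled points have a 95% counting interval that leaves out 0, and names mark 2-fold calls, such as Ddit4 at -1.02 in mSC-like cells and Stc2 at 6.92 in tSC-like cells.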

How the data were processed

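Hindlimb muscle cells of 4 libraries were measured by 3' single-cell RNA sequencing, with 1 library per genotype and sort. The authors deposited a filtered matrix of counts (UMIs per gene and cell barcode) for each library, without normalization; per the submitters' processing notes these were made with Cell Ranger 7.1.0 and mm10, and Seurat 4.30 was used for analysis. Cell type annotations of single cells were not used here, so the classes were rebuilt and may differ from those of the study.

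Cells with more than 200 genes and under 10% mitochondrial UMIs were kept, and 210, 366, 27 and 287 doublets (WT GFP+, Sod1KO GFP+, WT GFP-, Sod1KO GFP-) were removed by a simulated-neighbour score. Cells were clustered with leidenalg 0.10.2 (resolution 1, 30 principal components of 2000 variable genes, pathway genes left out) in Python 3.11.15, giving 35 clusters, which were named where at least 3 markers passed and the leading genes did not belong to another class. UMIs were summed per class and library and divided by all UMIs of the class (CPM). Groups needed 50 cells in both libraries, and genes 20 UMIs in both together. Intervals are exact Poisson for levels, exact conditional binomial for ratios and Clopper-Pearson for shares of cells (scipy 1.17.1), all at 95%. A call required a 2-fold ratio and an interval without 0; the count of intervals wholly on a side of 0 was added after the data were seen. The calling step was tested on simulated data. Named were all members, the called pathway genes, up to 10 in each direction for both Schwann cell classes, and the 5 genes most like each arm. Promoters and coordinates come from RefSeq on GRCm38.p6. The members and lists were chosen with earlier results of these data known.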

Additional observations from a re-analysis of the deposited data

Results flagged for a closer look

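Asns had counting intervals on opposite sides of 0 in different groups of the GFP+ libraries. Its log2 ratio of Sod1KO over WT was 0.52 (0.04 to 1.01) in endothelial-like cells, 1.83 (0.57 to 3.36) in tSC-like cells and 2.32 (0.55 to 4.72) in the unnamed cluster 8, from 3 and 19 UMIs. In the Wif1/Angptl7 cluster it was -0.57 (-0.73 to -0.41). With 1 library per group the difference between these groups was not tested. The tSC-like value comes from a class composed unlike in the 2 libraries. In its cluster 7, with 31 of the 37 Sod1KO UMIs, Asns was at 0.08 (-1.89 to 3.19). In its cluster 11 it had 4 UMIs in WT and 6 UMIs in Sod1KO.

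Hspa5 was at -0.25 (-0.44 to -0.06) in cluster 7 and at 0.29 (0.20 to 0.38) in cluster 11, both of them tSC-like cells of the same 2 libraries. This difference was not tested either, and cluster 7 held 60 WT cells.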

How the results depend on the processing

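No paired analysis was possible because each group had 1 library and the labels give no replicate numbers. No library was left out, since each group would then be empty.

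Both arms kept a ratio below 0 under the alternatives in mSC-like, smooth muscle-like and endothelial-like GFP- cells and in the Wif1/Angptl7 cluster, with ATF4-CHOP between -0.36 and -0.15 in mSC-like cells and XBP1-ATF6 between -0.22 and -0.12. Without clusters that came by over 80% from 1 library, the tSC-like XBP1-ATF6 ratio changed sign, from -0.13 to 0.12, and so did Sdf2l1, from -0.56 to 0.083, while ATF4-CHOP moved to -0.38, members with an interval below 0 from 5 to 2, and pathway calls from 5 to 3; what remains there is cluster 11. With over 500 genes and under 5% mitochondrial UMIs, the tSC-like XBP1-ATF6 ratio was -0.072. In smooth muscle-like cells the arms were then at -0.47 (ATF4-CHOP) and -0.20 (XBP1-ATF6), and Xbp1 changed sign from -0.25 to 0.37. Members there fell from 8 to 4 with a value below 0 and from 5 to 2 with an interval below 0. These counts leave out members with under 20 UMIs after the filter. Classes set per cell gave XBP1-ATF6 ratios of -0.033 in tSC-like and -0.23 in smooth muscle-like cells, and gave no value for the Wif1/Angptl7 cluster. Median-of-ratios scaling gave -0.085 for XBP1-ATF6 in that cluster, and -0.18 (ATF4-CHOP) and -0.28 (XBP1-ATF6) in endothelial-like GFP- cells. Leaving mitochondrial genes and Gm42418 out of the total gave XBP1-ATF6 ratios of -0.083 and -0.30 in these groups. The causes were not tested.

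Pathway calls in mSC-like cells numbered 2, and 1 under median-of-ratios scaling, the stricter filter or the total without Gm42418, 5 after ambient subtraction, 4 with classes per cell and 9 at 1.5-fold. Endothelial-like GFP- cells had 10, and 2 without clusters that came by over 80% from 1 library, 3 without doublet removal and 4 with classes per cell. At 1.5-fold, tSC-like pathway calls went from 5 to 20, and calls over all genes from 367 to 876 in mSC-like and from 1547 to 2954 in tSC-like cells. Of the 377 alternative values for single members, 357 moved by less than their counting interval and the other 20 by more. Among these 20, beside Sdf2l1 and Xbp1 above, Asns (-0.74 to 0.48 and 0.47) and Dnajb9 (-0.12 to 0.15) changed sign in smooth muscle-like cells, from values whose interval included 0. With Pearson correlation, 3 of the 5 genes most like the ATF4-CHOP arm and 1 of the 5 most like XBP1-ATF6 were shared. Chac1 and Trib3 in both Schwann cell classes, and Asns in mSC-like cells, had under 20 UMIs in both libraries together, so ratios are not given for them.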
